A study of Mus musculus with 154 samples.

Results

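The livers of (B6.A5 X B6.A17)F1 mice, which carried 1 A/J-derived copy of chromosome 5 and 1 A/J-derived copy of chromosome 17, were compared with those of both single chromosome substitution strains and of the control strain. Mice were taken by strain label alone, and 40 mice of 4 strains entered the comparison, beside 114 mice of 20 other strains in the series, with 5 mice of (B6.A5 X B6.A17)F1, 7 of (B6.A5 X B6)F1, 8 of (B6 X B6.A17)F1 and 20 of B6. B6 is C57BL/6J, the inbred strain that supplied every other chromosome in all 4 groups. In a chromosome substitution strain (CSS), a chromosome pair of B6 is replaced by that of the inbred strain A/J, so the F1 mice were heterozygous along the whole substituted chromosome and an effect cannot be placed within it. Strain names list the sire first, which means that chromosome 5 came from the sire and chromosome 17 from the dam in the single and in the double strain alike. All mice were 5 weeks old, were fasted overnight and received isoflurane before the liver was taken, and per the study's methods they were male. The labels do not tie mice to litters or sequencing runs, so the p-values measure the spread between mice as labelled.

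If both chromosomes act independently on the log scale, the double strain differs from B6 by the sum of the single effects, and the departure from that sum is the interaction. A gene on a substituted chromosome (cis) can differ through its own A/J allele, whereas a gene elsewhere (trans) can differ through products of the substituted chromosomes. Genes of either kind could also differ through the dam, the litter or the sequencing run, which was not tested. In mice with the A/J chromosome 17, the dam carried it too. Chromosome 17 carries the major histocompatibility complex, whose class I and class II molecules present peptides, together with complement genes and Glo1. Chromosome 5 carries a cluster of guanylate-binding proteins, which are interferon-inducible GTPases, and the Cyp3a and Ugt2b clusters of drug-metabolizing enzymes. In whole tissue, fewer cells of a type and less RNA per cell cannot be told apart.

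The (B6.A5 X B6.A17)F1 mice had between 8703157 and 18523161 counted reads, and the 35 other mice between 6059667 and 26335513. All 7 hepatocyte markers were measured, with summed levels between 101000 and 122700 CPM (CPM are counts scaled to a common library size with edgeR's TMM factors) in the double strain and between 97690 and 156500 CPM in B6. Among the genes named here, replicate 4 of the double strain was the mouse that lay apart from the other 4 in 8 of the 9 genes in which 1 mouse did so, including Pebp1, Marco and Lcn2. The single skeletal muscle marker in the table, Myh4, was between 2.65 and 9.10 CPM in the double strain, between 0 and 1.45 CPM in B6, at most 4.91 CPM in (B6.A5 X B6)F1 and at most 23.5 CPM in (B6 X B6.A17)F1.

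Against B6, the double strain changed the level of 1.44% of 13289 genes, with 129 higher (0.971%) and 62 lower (0.467%) (adjusted p under 0.05 in edgeR's quasi-likelihood test, where the Benjamini-Hochberg adjustment was made for cis and trans genes apart). A gene that passed this test is described as changed or called. On chromosomes 5 and 17, 126 of 1601 genes changed (7.87%), 77 upward (4.81%) and 49 downward (3.06%), while elsewhere 65 of 11688 did (0.556%), 52 upward (0.445%) and 13 downward (0.111%). The share was 7.62% of 971 genes on chromosome 5 and 8.25% of 630 genes on chromosome 17. In steps of 20 Mb (GRCm38), the cis calls were spread over both chromosomes, with shares between 3.14% and 9.38% on chromosome 5 and between 4.41% and 10.4% on chromosome 17. All 5 double-strain mice lay outside the range of the 20 B6 mice for 21 of the 126 cis calls, against 1.31% of all cis genes tested, and for 6 of the 65 trans calls, against 0.0684% of all trans genes tested. The number of calls was 113 without replicate 2 of the double strain and 127 without replicate 3, and it was 85 when only the 4 groups were fitted without surrogate variables.

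Several chromosome 5 genes with large changes had nearly the same change in the single chromosome 5 strain, with intervals of the interaction that held 0. Abhd1, which encodes an alpha/beta hydrolase domain protein (ENSMUSG00000006638, chr5:30950066-30955091), was at 25.1, 30.6, 24.2, 16.8 and 20.6 CPM in the 5 double-strain mice. Its lowest, median and highest levels were 1.97, 3.66 and 5.04 CPM in B6, 20.7, 24.2 and 30.4 CPM in (B6.A5 X B6)F1 and 1.98, 3.50 and 5.48 CPM in (B6 X B6.A17)F1. Every mouse with the A/J chromosome 5 was thus above every mouse without it. Relative to B6, the log2 fold change was 2.83 in the double strain (SE 0.13, adjusted p = 8.16e-44 from edgeR with Benjamini-Hochberg adjustment) and 2.86 in the single strain, and the interaction was -0.15 (95% interval -0.56 to 0.27). Abhd1 overlaps Preb on the opposite strand, and the strand setting of the counting is not given in the sources used here.

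Pebp1, the Raf kinase inhibitor protein (ENSMUSG00000032959, chr5:117282654-117287625), was at 113.7, 125.8, 117.7, 79.8 and 112.3 CPM in the double strain. In B6 it lay between 45.9 and 64.9 CPM, in (B6.A5 X B6)F1 between 91.1 and 122.4 CPM and in (B6 X B6.A17)F1 between 47.2 and 84.2 CPM. All double-strain mice exceeded all B6 mice, and replicate 4 was the lowest of them. Against B6 it had a log2 fold change of 1.01 (SE 0.06, adjusted p = 1.73e-34 from edgeR with Benjamini-Hochberg adjustment) against 0.95 in the single strain, and the interaction of 0.01 had a 95% interval from -0.16 to 0.19. Slc15a4, a lysosomal histidine and peptide transporter that overlaps Glt1d1 on the opposite strand, was at 47.0, 56.4, 65.4, 59.5 and 49.7 CPM, above the 18.3 to 36.4 CPM of B6, with log2 fold changes of 1.06 in the double and 1.18 in the single strain. Zbed5, a BED-type zinc finger gene opposite Phkg1, was lower, at 4.27, 3.02, 4.49, 5.18 and 2.41 CPM against 3.93, 9.46 and 15.96 CPM (lowest, median, highest) in B6, which overlapped, and its log2 fold changes were -1.25 in the double and -1.11 in the single strain. Psph, the last enzyme of serine synthesis, overlaps Cct6a on the opposite strand and had log2 fold changes of 0.67 and 0.74.

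Of the 6 measured guanylate-binding protein genes on chromosome 5, which act in defence against intracellular microbes, Gbp4, Gbp10 and Gbp11 were called higher in the double strain. The log2 fold changes of Gbp6, Gbp8 and Gbp9, 0.12, -0.08 and 0.26, did not pass (adjusted p of 0.853, 0.862 and 0.0822 from edgeR with Benjamini-Hochberg adjustment). Gbp11, annotated as a polymorphic pseudogene (ENSMUSG00000092021, chr5:105323042-105346472), was at 20.4, 19.01, 19.7, 10.9 and 30.9 CPM in the double strain. The levels were 1.28 to 4.0 CPM in B6 (median 2.48), 14.2 to 26.3 CPM in (B6.A5 X B6)F1 (median 19.6) and 2.51 to 8.03 CPM in (B6 X B6.A17)F1 (median 4.10). The double strain therefore lay among the single chromosome 5 mice, although chromosome 17 alone also raised Gbp11. Its log2 fold changes from B6 were 2.98 for chromosome 5, 0.94 for chromosome 17 (adjusted p = 0.000781 from edgeR with Benjamini-Hochberg adjustment) and 2.89 for both, which left an interaction of -1.04 (95% interval -1.55 to -0.52, unadjusted p = 0.000125, adjusted p = 0.15 from edgeR). Gbp4 and Gbp10 had log2 fold changes of 1.19 and 1.37 in the double strain, 0.97 and 0.99 with chromosome 5 and 0.48 and 0.56 with chromosome 17, the last of which did not pass (adjusted p = 0.201 from edgeR with Benjamini-Hochberg adjustment). Beside chromosome 17, Gbp4 was called (0.71) and Gbp10 was not (0.81, adjusted p = 0.124 from edgeR). These genes resemble each other, and Gbp4 overlaps Gbp8 and Gbp9 on the same strand, so reads may have been split among them.

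Several chromosome 17 genes with large changes had similar changes in the single and the double strain. C4a, a copy of complement component 4 (ENSMUSG00000015451, chr17:34809092-34823464), was at 17.9, 16.1, 15.8, 17.1 and 16.7 CPM in the double strain. Its range was 1.48 to 4.43 CPM in B6, 1.56 to 3.11 CPM in (B6.A5 X B6)F1 and 12.8 to 24.6 CPM in (B6 X B6.A17)F1, so the mice with and without the A/J chromosome 17 did not overlap. C4a had a log2 fold change of 2.52 in the double strain (SE 0.16, adjusted p = 3.44e-30 from edgeR with Benjamini-Hochberg adjustment) and 2.55 in the single strain. C4a shares most of its sequence with C4b, so its level is uncertain.

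Glo1, the glyoxalase that detoxifies methylglyoxal (ENSMUSG00000024026, chr17:30584936-30626871), lies in a segment known to be present in an extra copy in A/J. It was at 454.0, 549.7, 487.2, 454.6 and 562.2 CPM in the double strain and at 150 to 334 CPM in B6, with 213 to 316 CPM in (B6.A5 X B6)F1 and 399 to 705 CPM in (B6 X B6.A17)F1. All mice with the A/J chromosome 17 were above all those without it. For Glo1 the log2 fold change was 1.10 in the double strain (SE 0.08, adjusted p = 5.47e-23 from edgeR with Benjamini-Hochberg adjustment) and 1.06 in the single strain, and the interaction was -0.13 (95% interval -0.40 to 0.13). Btbd9, its neighbour in that segment, changed less, with log2 fold changes of 0.34 in the double and 0.32 in the single strain. Both measured genes of the segment were higher in the double strain, and 2 other listed genes were not in the table. Abca3, a transporter of phospholipids, was at 81.6, 63.7, 65.4, 76.7 and 79.0 CPM in the double strain, above the 20.8 to 40.8 CPM of B6 and above the median of 53.9 CPM of (B6 X B6.A17)F1. Its log2 fold change was 1.18 in the double and 0.91 in the single strain, with an interaction of 0.25 (95% interval -0.02 to 0.52).

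Of 28 genes of the major histocompatibility complex and antigen presentation, 3 rose and 5 fell in the double strain. The called members lie on chromosome 17, where 8.25% of all genes were called. H2-T10 and H2-Q2, class I genes, were at 4.89 to 8.46 CPM and 4.44 to 8.13 CPM, against at most 1.80 and 1.63 CPM in B6, with log2 fold changes of 3.17 and 2.84 in the double and 3.22 and 2.62 in the single strain. Tap2, which carries peptides into the endoplasmic reticulum, rose by 0.45 on the log2 scale. H2-T22, a ligand of gamma delta T cells, was at 15.6, 15.4, 16.6, 11.6 and 15.4 CPM in the double strain and at 22.7 to 34.6 CPM in B6, and its log2 fold change was -0.82 (SE 0.08, adjusted p = 6.14e-15 from edgeR with Benjamini-Hochberg adjustment) against -0.58 in the single strain. H2-Q7, H2-Q10, H2-T23 and H2-K1 had log2 fold changes of -0.59, -0.55, -0.39 and -0.35. The members of this list resemble each other in sequence, and their median log2 fold change was -0.02, against 0.00 over all genes (-0.0016 unrounded). The other genes of this list had no call in the double strain.

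**Figure D1:**
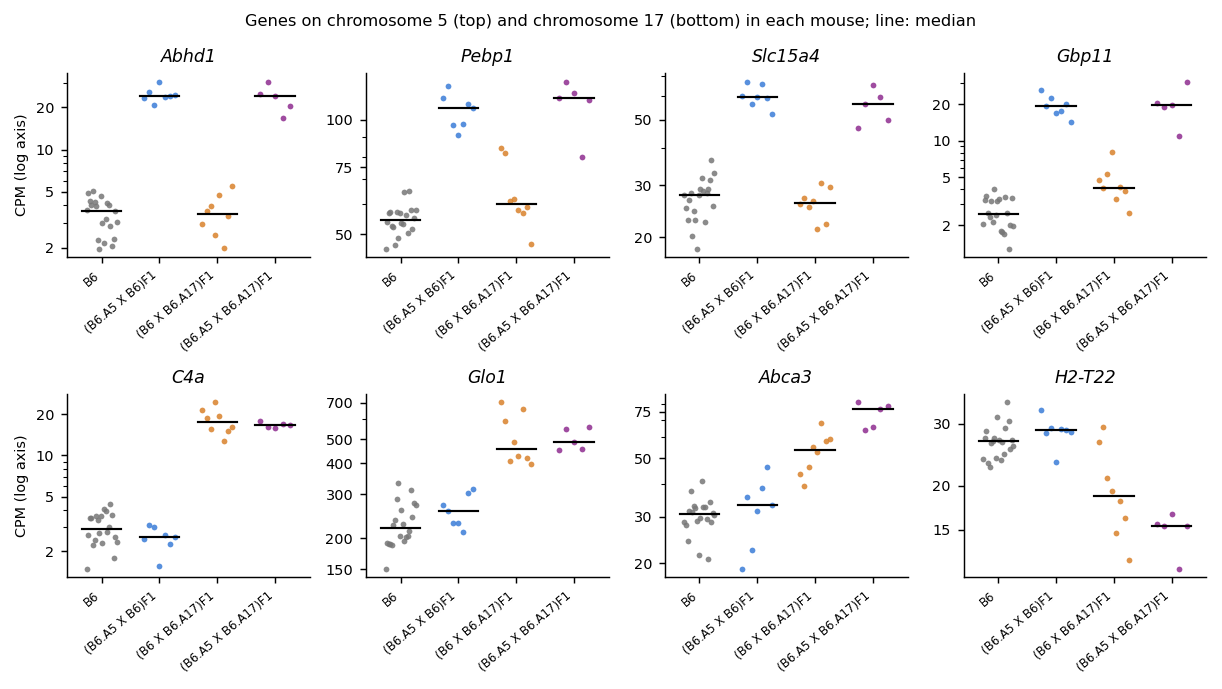
Levels of 4 chromosome 5 genes (top) and 4 chromosome 17 genes (bottom) in each mouse, as CPM on a log axis, with strains on the x axis, a point per mouse and a line at the median. The double strain sits with (B6.A5 X B6)F1 in the top row, for example at 16.8 to 30.6 CPM for Abhd1. It sits with (B6 X B6.A17)F1 for C4a (15.8 to 17.9 CPM) and Glo1. For Abca3 and H2-T22 its medians lie further from B6, at 76.7 and 15.4 CPM against 53.9 and 18.7 CPM in (B6 X B6.A17)F1, with overlapping ranges.

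The effect of each chromosome could be measured again in mice that the single-strain comparison did not use, by setting the double strain against the other single strain. The 2 comparisons of a chromosome shared no mouse, only the surrogate variables and the spread estimates of the fit. In (B6.A5 X B6)F1, 102 of 13289 genes differed from B6 (0.768%), with 60 higher (0.452%) and 42 lower (0.316%). Of these, 75 were on chromosome 5 (7.72% of its genes), with 45 higher (4.63%) and 30 lower (3.09%). When (B6.A5 X B6.A17)F1 was compared with (B6 X B6.A17)F1, 67 of these 75 had the same direction (89.3%) and 31 were called again (41.3%), against 5.36% of all chromosome 5 genes. Their median absolute log2 fold change, by which they had been picked, was 0.46 in the first comparison, and their median signed by that direction was 0.33 in the second. Read the other way, 50 of the 52 chromosome 5 genes called beside chromosome 17 had the same direction in B6, and 31 were called there.

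Trans genes were followed in the same way. Of the 27 called in (B6.A5 X B6)F1 (0.219%; 15 higher, 0.122%, and 12 lower, 0.0974%), 19 (70.4%) had the same direction beside the substituted chromosome 17, 5 (18.5%) had an unadjusted p under 0.05 in that direction and 0 were called. Among trans genes not called in B6 the first 2 shares were 54.2% and 7.5%. The median absolute log2 fold change of the 27, by which they had been picked, was 0.61 in B6. Their median signed by that direction was 0.08 beside chromosome 17. The 20 trans genes called beside chromosome 17 (0.162%) included none of these 27. Chromosome 17 changed 488 genes in B6 (3.67%), 227 upward (1.71%) and 261 downward (1.96%). Among them were 108 cis genes (17.1%), 53 higher (8.41%) and 55 lower (8.73%), and 380 trans genes (3%), 174 higher (1.37%) and 206 lower (1.63%). Of the 108, 87 (80.6%) had the same direction when the double strain was set against (B6.A5 X B6)F1, and 21 were called (19.4%), against 4.44% of all chromosome 17 genes. The median absolute log2 fold change of these 108 was 0.33 in B6, and their median signed by that direction was 0.14 beside chromosome 5. Of the 380, 225 (59.2%) had the same direction and 15 (3.95%) had an unadjusted p under 0.05 in it, where among trans genes not called in B6 the shares were 52.4% and 3.65%. The median absolute log2 fold change of the 380 was 0.31 in B6, and their median signed by that direction was 0.03 beside chromosome 5. The 1 trans gene called beside chromosome 5 (0.0079%) was Zkscan3, also called in B6, a zinc finger transcription factor on chromosome 13, which was at 65.3, 89.2, 76.5, 98.9 and 84.5 CPM in the double strain and at 38.8 to 77.3 CPM (median 59.2) in B6, with log2 fold changes of 0.42 in B6 and 0.46 beside chromosome 5.

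The number of chromosome 17 calls in B6 varied with the fit. It was 1730 with 0 surrogate variables, 126 with 10 and 779 without replicate 4 of the double strain, which enters through the surrogate variables and the shared spread. Among the alternatives tried, the share of the trans calls with the same direction beside chromosome 5 was between 46.2% (1578 genes, 0 surrogate variables) and 74% (50 genes, the 4 groups alone with 5 surrogate variables). The chromosome 5 calls beside chromosome 17 numbered 72 (0.542%), but 839 with 0 surrogate variables, and 41, 40 and 42 without replicates 1, 2 and 3 of the double strain. The chromosome 17 calls beside chromosome 5 numbered 29 (0.218%) and stayed between 22 and 35 under all alternatives.

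**Figure D2:**
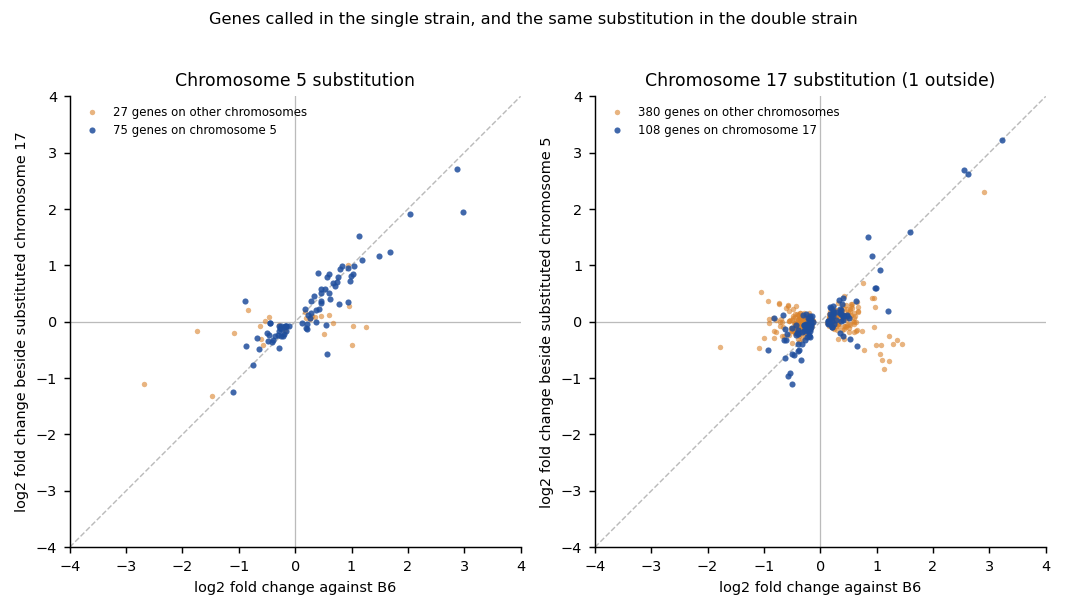
Log2 fold changes of the genes called in a single strain, against B6 (x axis) and in the double strain against the other single strain (y axis), for chromosome 5 (left, 75 cis and 27 trans genes) and chromosome 17 (right, 108 cis and 380 trans genes, with Myh4 outside the axes). The cis genes (blue), signed by their direction in B6, have medians on the y axis of 0.33 for chromosome 5 and 0.14 for chromosome 17, against 0.46 and 0.33 on the x axis. The trans genes (orange) scatter around 0 on the y axis, with medians, signed in the same way, of 0.08 and 0.03.

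No gene had an interaction of chromosomes 5 and 17 that passed an adjusted p of 0.05 (0 of 13289, edgeR with Benjamini-Hochberg adjustment), and 1239 genes (9.32%) had an unadjusted p under 0.05, with 10.4% of cis and 9.17% of trans genes. DESeq2's Wald test called 1 gene, Cd93. Without replicate 4 of the double strain edgeR called Cd93 and Gm37296, and without replicate 5 it called Gbp11. For the 9633 genes whose average log2 CPM was 2 or more and whose interaction was far enough from 0 to give a stable standard error, the median half-width of the 95% interval of the interaction was 0.24 on the log2 scale, and 77.7% of the intervals lay within 0.5 of 0. Interactions smaller than these intervals could not be told from none with 5 double-strain mice. Larger ones could also go uncalled, since the intervals are not adjusted for the number of genes tested. The interaction of Cyp3a11, for example, was 1.80 and did not pass (adjusted p = 0.382 from edgeR). For the 126 cis and 65 trans genes called in the double strain, 42.9% and 30.8% of the intervals lay within 0.5 of 0.

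Cd93, a receptor of endothelial cells (chromosome 2), had the lowest interaction p. It was at 21.4, 28.6, 23.4, 25.3 and 21.8 CPM in the double strain, at 14.02, 21.8 and 30.8 CPM (lowest, median, highest) in B6, at 18.2, 19.7 and 27.9 CPM in (B6.A5 X B6)F1 and at 11.4, 13.7 and 23.7 CPM in (B6 X B6.A17)F1. Chromosome 17 alone lowered it, with a log2 fold change of -0.56 (SE 0.10, adjusted p = 0.000267 from edgeR with Benjamini-Hochberg adjustment), whereas the double strain was within the range of B6. The interaction was 0.76 (95% interval 0.44 to 1.08, unadjusted p = 4.96e-06, adjusted p = 0.058 from edgeR). Of the next 5 genes by interaction p, Gm37296 (-0.61), the integrin activator Fermt2 (-0.44), the secreted protein Angptl6 (-0.75) and the sterol synthesis scaffold Erg28 (-0.53) had negative values and the noncoding Gm43305 (1.3) a positive one, with adjusted p between 0.121 and 0.123 from edgeR with Benjamini-Hochberg adjustment. Replicate 4 lay apart from the other double-strain mice in Gm37296, Fermt2 and Gm43305. Its levels were 10.8, 81.3 and 617 CPM, against 5.75 to 6.87, 104.6 to 111.9 and 327.6 to 369.9 CPM in the other 4.

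**Figure D3:**
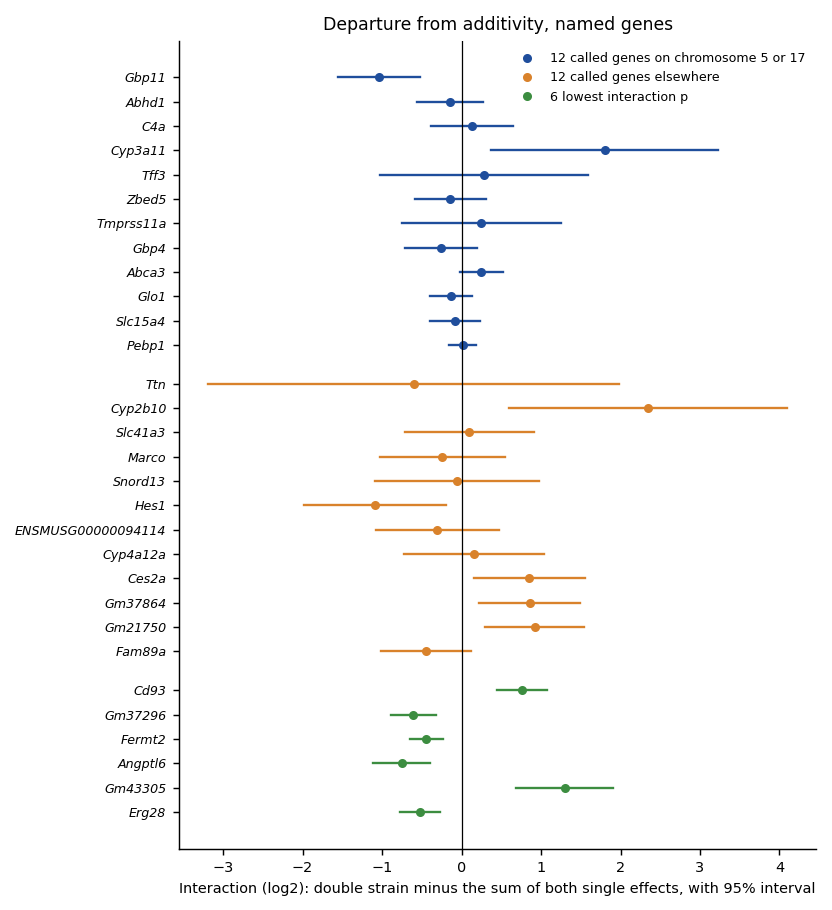
Interaction of chromosomes 5 and 17 on the log2 scale (x axis) for the 12 cis and 12 trans genes with the largest called changes in the double strain and the 6 genes with the lowest interaction p, with 95% intervals as lines. The interval of Pebp1 runs from -0.16 to 0.19. Among the cis and trans genes, the intervals of Gbp11 and Hes1 lie below 0. Those of Cyp3a11, Cyp2b10, Ces2a, Gm37864 and Gm21750 lie above 0. These genes were picked for their change in the double strain, which enters the interaction with the same sign. The 6 genes picked by interaction p all have intervals that leave out 0. None of the interactions passed the adjusted threshold.

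Several enzymes of drug metabolism were higher in the double strain than in B6. These enzymes oxidize, hydrolyse or conjugate foreign compounds and steroids, and many are induced through the nuclear receptors PXR and CAR, which bind paired half-sites in DNA. Of 35 measured P450 enzymes and regulators of this list, Cyp3a11, Cyp2b10, Cyp3a25 and Cyp3a44 rose and Cyp3a13 fell (median log2 fold change 0.22). Of 37 conjugating enzymes, Gstm1, Gstm3, Ugt2b5, Ugt2b35 and Ugt2b36 rose and 0 fell (median 0.19), and of 18 NRF2 targets Ephx1 rose (median 0.10).

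Cyp3a11, the most abundant of the Cyp3a enzymes and itself on chromosome 5 (ENSMUSG00000056035, chr5:145854426-145879964), was at 7764, 10680, 8127, 7581 and 5727 CPM in the double strain. The lowest, median and highest levels were 894, 1466 and 9330 CPM in B6, 1291, 2158 and 9997 CPM in (B6.A5 X B6)F1 and 832, 1525 and 7833 CPM in (B6 X B6.A17)F1. All 5 double-strain mice were high, whereas 4 of 20, 1 of 7 and 1 of 8 mice of the other groups reached 5727 CPM and the next mouse below was at 2315 CPM. The log2 fold change from B6 was 1.61 (SE 0.45, adjusted p = 0.00988 from edgeR with Benjamini-Hochberg adjustment), the sum of the single effects was -0.19, and the interaction was 1.80 (95% interval 0.37 to 3.23, unadjusted p = 0.0138, adjusted p = 0.382 from edgeR). Since Cyp3a11 was picked for its change in the double strain, which enters the interaction with the same sign, this interval is a description. Without replicate 4 the change from B6 was 1.33 and no longer called, and DESeq2's Wald test did not call it either.

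Ces2a, a carboxylesterase on chromosome 8, was at 291.6, 375.6, 346.7, 275.6 and 250.9 CPM in the double strain, with medians of 120.6, 133.1 and 127.8 CPM in B6, (B6.A5 X B6)F1 and (B6 X B6.A17)F1. The mice of the other groups that reached 250.9 CPM were again 4, 1 and 1, and the next below was at 150.9 CPM. They were the same 6 of 35 mice as for Cyp3a11, and of these 6, 3 reached the lowest double-strain level of Gstm1 and 3 that of Gstm3. For Cyp2b10 and Ephx1 the lowest double-strain levels lay near the B6 medians and were reached by 9 and 11 of the 20 B6 mice. Ces2a's log2 fold change from B6 was 1.02 (SE 0.23, adjusted p = 0.00838 from edgeR with Benjamini-Hochberg adjustment), and it was called neither without replicate 2, nor without 3, nor without 4 (0.93 to 0.98). The interaction of Ces2a was 0.85 (95% interval 0.155 to 1.548, adjusted p = 0.43 from edgeR), and Ces2a too was picked for its double-strain change.

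Gstm1, a glutathione transferase on chromosome 3, was at 579.0, 586.1, 586.2, 406.2 and 435.9 CPM in the double strain and had medians of 290, 312.5 and 266.9 CPM in B6, (B6.A5 X B6)F1 and (B6 X B6.A17)F1. Only 1 mouse of each other group reached 406.2 CPM. The log2 fold change was 0.70 (SE 0.14, adjusted p = 0.00462 from edgeR with Benjamini-Hochberg adjustment), and it was also called against (B6 X B6.A17)F1, at 0.74. Its neighbour Gstm3 was far lower, at 9.10, 9.33, 6.45, 4.89 and 5.62 CPM against a median of 2.55 CPM in B6 (log2 fold change 1.31). Ephx1, the microsomal epoxide hydrolase on chromosome 1, was at 227.1 to 467.7 CPM against a median of 243.8 CPM in B6 (0.54). Neither Gstm3 (1.21) nor Ephx1 (0.46) was called without replicate 2. The Gstm and Ugt2b genes are families of similar genes, so reads may have been split among them. Ugt2b5 (0.32 and 0.33) and Ugt2b35 (0.28 and 0.34) were not called without replicate 2 or 3, and Ugt2b5 was not called with 0 surrogate variables. With only the 4 groups and 0 surrogate variables, none of Cyp3a11, Cyp2b10, Ces2a, Gstm1, Gstm3, Ephx1, Ugt2b5 and Ugt2b35 was called (adjusted p between 0.0556 and 0.222 from edgeR).

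Cyp2b10, the classic target of CAR, was at 7.17, 14.1, 13.5, 103.9 and 3.75 CPM in the double strain and at 0.12 to 58.0 CPM (median 3.58) in B6. The groups overlapped, and replicate 4 alone held the highest level. The log2 fold change was 2.15 (SE 0.53, adjusted p = 0.0281 from edgeR with Benjamini-Hochberg adjustment) and 1.32 without replicate 4, where it was not called. Its call was also lost without replicate 2, with 0 or 10 surrogate variables and with the 4 groups alone. DESeq2's Wald test and a filter of 15 counts in 75% of the mice removed it too. Cyp3a13 and Cyp3a44 also changed with chromosome 5 alone. Cyp3a13 was lower, at 165.1, 218.7, 222.8, 312.9 and 158.9 CPM against a median of 340.8 CPM in B6 (-0.74), with -0.88 in (B6.A5 X B6)F1 and -0.43 beside chromosome 17. Cyp3a44 was higher at a low level, at 2.13 to 4.10 CPM against a median of 0.98 CPM (1.61), with 2.04 in (B6.A5 X B6)F1, and in the double strain it was not called without replicates 1, 4 or 5. That call was also lost with 0 surrogate variables, by DESeq2's Wald test and with adjustment over all genes together.

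In the wider series, mice of other strains also reached the levels of the double strain. Among the 114 mice of the other 20 strains, 49 (43%) reached the lowest double-strain level of Cyp3a11 and 42 (36.8%) that of Ces2a, in 15 and 14 strains. In 3 of these strains every mouse reached that of Cyp3a11, namely (B6 X B6.A6)F1, (B6.A4 X B6.A17)F1 and (B6.A8 X B6.A14)F1. In the last 2 every mouse also reached that of Ces2a. For Gstm1 and Gstm3, 23 mice each (20.2%) reached the lowest double-strain level, and for Cyp2b10 and Ephx1 79 (69.3%) and 77 (67.5%) did. Me1, the cytosolic malic enzyme that supplies NADPH, was at 109, 97.4, 90.8, 88.1 and 100 CPM in the double strain, above every B6 mouse (35.4 to 78.3 CPM), and 14 of these 114 mice (12.3%) reached its lowest level. Its log2 fold change was 0.67 (SE 0.14, adjusted p = 0.00462 from edgeR with Benjamini-Hochberg adjustment). Abcc3, which exports conjugates to the blood, was at 181.1 to 268.7 CPM against a median of 146.4 CPM and a highest value of 296.9 CPM in B6, and its log2 fold change of 0.53 did not pass (adjusted p = 0.0719 from edgeR with Benjamini-Hochberg adjustment). Nr1i2, which encodes PXR, had a log2 fold change of -0.26 and did not pass either (adjusted p = 0.171 from the same edgeR test), whereas with chromosome 17 alone it was called lower (-0.33, adjusted p = 0.0172).

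**Figure D4:**
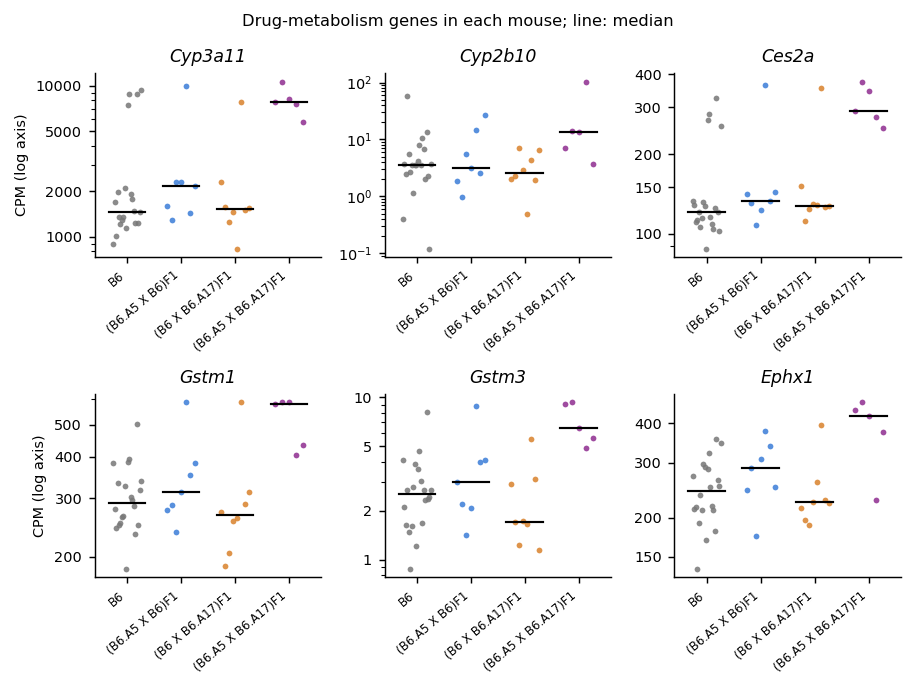
Levels of 6 drug-metabolism genes in each mouse, as CPM on a log axis, with a line at the median of each strain. For Cyp3a11 and Ces2a, the 5 double-strain mice lie with 4 B6 mice and 1 mouse of each single strain, apart from the remaining mice, while the groups overlap for Cyp2b10 and Ephx1.

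The promoters of 4 of the called genes are given to show which of them hold half-sites of the kind that PXR and CAR bind. Each run holds the 250 bases before the start of the gene in RefSeq (GRCm38.p6), on the strand of the gene, and capitals mark half-sites of nuclear receptors, searched as AGGTCA and AGTTCA on both strands.
Cyp3a11, chr5:145879855-145880104, minus strand: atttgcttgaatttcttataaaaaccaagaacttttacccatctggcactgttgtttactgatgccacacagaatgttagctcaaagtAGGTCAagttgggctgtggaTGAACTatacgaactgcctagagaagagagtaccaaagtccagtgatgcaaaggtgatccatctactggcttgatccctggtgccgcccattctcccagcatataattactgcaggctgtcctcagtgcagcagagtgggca
Ces2a, chr8:104733753-104734002, plus strand: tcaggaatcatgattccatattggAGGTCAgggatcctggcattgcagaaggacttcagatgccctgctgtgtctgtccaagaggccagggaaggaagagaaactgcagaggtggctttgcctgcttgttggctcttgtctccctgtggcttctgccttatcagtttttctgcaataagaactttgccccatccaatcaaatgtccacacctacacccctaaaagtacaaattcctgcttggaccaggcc
Cyp2b10, chr7:25897408-25897657, plus strand: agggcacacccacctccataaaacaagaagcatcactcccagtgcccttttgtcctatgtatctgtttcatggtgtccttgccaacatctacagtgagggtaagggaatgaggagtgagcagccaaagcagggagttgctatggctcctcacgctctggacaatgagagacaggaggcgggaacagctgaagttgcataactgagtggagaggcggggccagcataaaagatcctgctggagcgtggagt
Gstm1, chr3:108017974-108018223, minus strand: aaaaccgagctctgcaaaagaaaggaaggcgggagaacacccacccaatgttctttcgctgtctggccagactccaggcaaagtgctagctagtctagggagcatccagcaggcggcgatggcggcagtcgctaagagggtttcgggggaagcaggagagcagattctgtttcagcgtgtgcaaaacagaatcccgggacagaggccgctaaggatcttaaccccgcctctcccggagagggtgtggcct
Cyp3a11 held 1 match to each form, on opposite strands. Ces2a held 1 match, and the windows of Cyp2b10 and Gstm1 held 0. Bases outside these windows and other forms of the half-site were not searched, so a window with 0 does not mean a gene without such sites. A match occurred in 24.2% of all 32851 promoters of that length in the RefSeq table, and it is a description of the letters, not of binding.

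Genes of cholesterol synthesis are switched on by SREBP2 when sterols run low. Of 25 measured genes, 5 (Sqle, Msmo1, Fdps, Cyp51 and Mvk) rose in (B6.A5 X B6)F1 and 0 were called in the double strain, while the difference between the effects passed for none. The list medians were 0.28 and -0.04 on the log2 scale, against 0.00 over all genes. These 5 were named after their values were seen. Sqle, the squalene epoxidase that commits carbon to sterols, was at 3.31, 4.21, 3.22, 2.16 and 4.19 CPM in the double strain, and its lowest, median and highest levels were 0.94, 2.65 and 10.3 CPM in B6 and 3.70, 6.08 and 13.2 CPM in (B6.A5 X B6)F1. Msmo1, a methylsterol oxidase, was at 30.3, 27.2, 26.5, 20.1 and 24.7 CPM in the double strain, with medians of 26.8 CPM in B6, 54.2 CPM in (B6.A5 X B6)F1 and 35.2 CPM in (B6 X B6.A17)F1. The (B6.A5 X B6)F1 mice spread widely, and the double strain lay within the B6 range for all 5 genes. The interactions were -1.35 for Sqle, -1.42 for Msmo1, -1.09 for Fdps, -1.13 for Cyp51 and -0.61 for Mvk, each with a 95% interval below 0, but the lowest adjusted p was 0.15 from edgeR with Benjamini-Hochberg adjustment. Cyp51 and Mvk lie on chromosome 5. Since these genes were picked for their single-strain change, which enters the interaction with the opposite sign, the negative values are a description.

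Asns, asparagine synthetase, is a target of the transcription factor ATF4 and lies on chromosome 6. It was at 6.34, 4.49, 8.35, 4.61 and 8.38 CPM in the double strain, and its lowest, median and highest levels were 7.36, 15.7 and 54.8 CPM in B6, 3.68, 6.59 and 11.3 CPM in (B6.A5 X B6)F1 and 4.13, 15.4 and 53.7 CPM in (B6 X B6.A17)F1. Both groups with the A/J chromosome 5 were low, with some overlap with the others. The log2 fold change was -1.47 in (B6.A5 X B6)F1 (SE 0.33, adjusted p = 0.0236 from edgeR with Benjamini-Hochberg adjustment), -1.40 in the double strain against B6 (adjusted p = 0.0666) and -1.32 in the double strain against (B6 X B6.A17)F1 (unadjusted p = 0.00315, adjusted p = 0.189). The call in (B6.A5 X B6)F1 was lost with 10 surrogate variables (adjusted p = 0.0549 from edgeR) and with the 4 groups alone (0.129 and 0.0838 with 0 and 5), while the double strain against B6 passed with 0 or 10 surrogate variables and with adjustment over all genes together. Among 33 measured ATF4 targets, Psph rose in the double strain and 0 fell, with a median of -0.10. The promoter of Asns (RefSeq, GRCm38.p6, chr6:7693210-7693459, minus strand) is given because it holds an amino acid response element, searched as TGATGNAA on both strands and marked in capitals from base 23 to 16 before the start; 3.45% of the 32851 promoters held a match.
Asns: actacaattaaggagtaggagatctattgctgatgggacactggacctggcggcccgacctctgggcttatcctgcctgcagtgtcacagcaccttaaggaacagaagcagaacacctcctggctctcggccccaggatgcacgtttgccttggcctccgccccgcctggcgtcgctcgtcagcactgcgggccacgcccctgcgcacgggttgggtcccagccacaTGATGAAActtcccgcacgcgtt

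**Figure D5:**
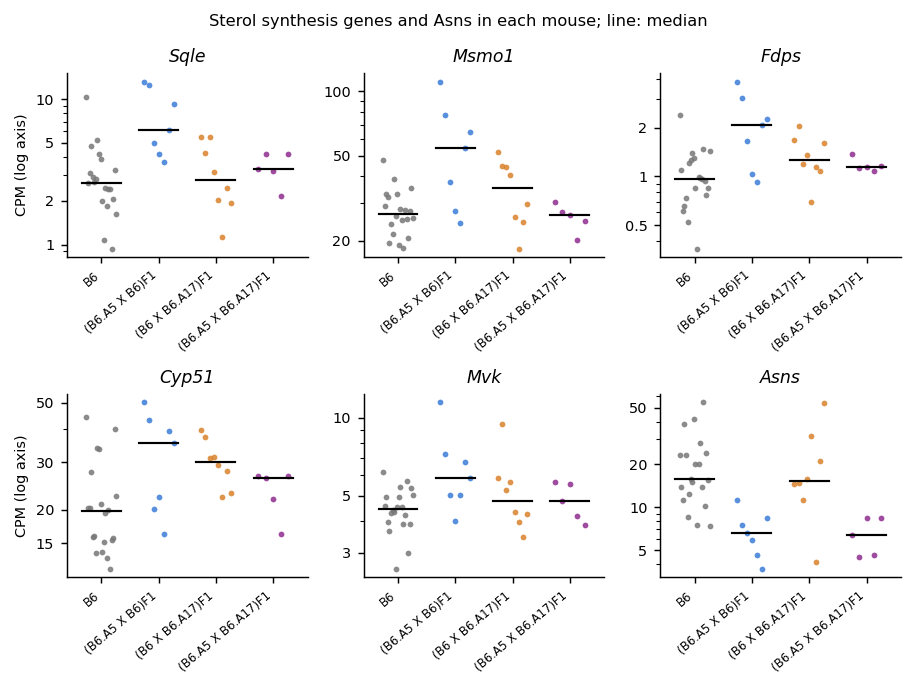
Levels of 5 sterol synthesis genes and Asns in each mouse, as CPM on a log axis, with a line at the median of each strain. The sterol genes have their highest medians in (B6.A5 X B6)F1, with ranges that overlap those of B6, and in the double strain Sqle was at 2.16 to 4.21 CPM, while Asns is low in both strains with the A/J chromosome 5.

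Glucose production in the fasted liver depends on gluconeogenesis, and of its 18 listed genes 2 fell in the double strain and 0 rose (median -0.19). Ppargc1a, a coactivator of the fasting response (chromosome 5), was at 21.8, 24.97, 27.1, 16.3 and 20.96 CPM in the double strain and at 14.1, 41.2 and 74.4 CPM in B6, with medians of 29.99 and 30.1 CPM in the single strains. Its log2 fold change of -0.83 (SE 0.23, adjusted p = 0.0111 from edgeR with Benjamini-Hochberg adjustment) lay near the sum of the single effects, -0.89, neither of which passed, and it was -0.68 and not called without replicate 4. Sds, serine dehydratase (chromosome 5), was at 152.0, 144.0, 188.8, 202.4 and 137.8 CPM against a median of 248.8 CPM in B6, with a log2 fold change of -0.56 and a sum of single effects of -0.70, and it was not called without replicates 2, 4 or 5. Sds was also the only change among 37 genes of amino acid catabolism and the urea cycle (median -0.12). Of 17 measured fatty acid synthesis genes, Me1 and Mlxipl, which encodes the carbohydrate-sensing factor ChREBP, rose (median 0.01). Mlxipl had a log2 fold change of 0.31 and was called with replicate 1 left out but not with any of the other 4. Its call was also lost with 0 or 10 surrogate variables, with the 4 groups alone and with adjustment over all genes together.

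Other trans genes with large changes are given by their values. Marco, a scavenger receptor of macrophages, was at 11.4, 11.9, 11.1, 4.67 and 11.6 CPM in the double strain and at 10.05, 22.99 and 103.6 CPM (lowest, median, highest) in B6, with a log2 fold change of -1.39 (SE 0.29, adjusted p = 0.00481 from edgeR with Benjamini-Hochberg adjustment). Among 5 Kupffer cell markers, Adgre1, which lies on chromosome 17, fell by 0.44 on the log2 scale, and the summed marker level was 182.6 to 277.8 CPM against 226.7 to 360.5 CPM in B6; their part in the change of Marco was not tested. Slc41a3, a magnesium transporter, was at 2.05 to 3.87 CPM against a median of 9.31 CPM in B6 (-1.44), Hes1, a repressor downstream of Notch, at 9.78, 1.75, 2.59, 3.59 and 3.75 CPM against 8.33 CPM (-1.25), and the trefoil peptide gene Tff3 on chromosome 17 at 8.25 to 12.3 CPM against 18.6 CPM (-1.43). The adjusted p of Tff3 was 0.0496 from edgeR with Benjamini-Hochberg adjustment, and Tff3 was not called when any 1 double-strain mouse was left out. Hes1 was not called without replicates 2, 3, 4 or 5. ENSMUSG00000094114, which the annotation does not name, had a log2 fold change of -1.17 and was not called without replicates 2, 3, 4 or 5 either. With only the 4 groups and 0 surrogate variables, none of Marco, Slc41a3, Hes1, Tff3 and ENSMUSG00000094114 was called.

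Cyp4a12a, a male-biased fatty acid hydroxylase, was at 103.6, 118.2, 124.8, 93.5 and 93.4 CPM in the double strain, above the 3.76 to 90.8 CPM of B6. Its log2 fold change was 1.07 (adjusted p = 0.0412 from edgeR with Benjamini-Hochberg adjustment), and it was called with replicate 1 left out but not with any of the other 4. The call was also lost with 0 or 10 surrogate variables, with the 4 groups alone and by DESeq2's Wald test. It was the only 1 of 23 male-biased genes that rose (median 0.12). With chromosome 17 alone, Cyp7b1, Hsd3b5, Selenbp2 and Slco1a1 rose (median 0.56), and their interactions had adjusted p between 0.3 and 0.383 from edgeR with Benjamini-Hochberg adjustment. Hsd3b5, a steroid dehydrogenase, had a log2 fold change of 1.45 with chromosome 17 and 0.47 in the double strain, where it did not pass (adjusted p = 0.708 from edgeR with Benjamini-Hochberg adjustment). The chromosome 17 call of Hsd3b5 was lost with 10 surrogate variables, with the 4 groups alone and with the count filter (adjusted p between 0.0555 and 0.16 from edgeR). Of 12 measured female-biased genes, Cyp3a44 rose (median 0.06). Ttn, which encodes the muscle protein titin, was at 40.8, 23.2, 7.14, 7.23 and 26.04 CPM in the double strain, at 0.78 to 9.14 CPM in B6, at most 32.6 CPM in (B6.A5 X B6)F1 and at most 97.0 CPM in (B6 X B6.A17)F1, and its log2 fold change of 3.35 was not called when any 1 double-strain mouse was left out; the muscle marker Myh4 was above its B6 range in all 5 of these mice, and its part in the change was not tested. Snord13 (1.34), Tmprss11a (1.21), Gm37864 (0.86), Gm21750 (0.82) and Fam89a (0.81) were the remaining genes with large changes, of which Tmprss11a lies on chromosome 5. Each of these calls was lost with 1 mouse left out, Snord13 without replicates 1, 4 or 5, Tmprss11a without 4 or 5, Gm37864 and Gm21750 without 2, 3 or 5 and Fam89a without 2 or 3.

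A further 10 lists held no gene called in the double strain. They were chaperones of the endoplasmic reticulum (24 measured genes, median 0.10), glycolysis (17, -0.05), insulin and glucagon signalling (20, -0.05), fatty acid oxidation and ketogenesis (30, -0.05), bile acid synthesis and transport (21, 0.05), the circadian clock (19, -0.15), acute-phase proteins (25, -0.16), the cell cycle (28, 0.01), glucocorticoid-responsive genes (13, -0.15) and apolipoproteins (19, -0.03). Among the acute-phase proteins, Saa1 was at 17.5, 12.4, 13.4, 24.01 and 21.9 CPM against a median of 38.9 CPM and a highest value of 997 CPM in B6, and its log2 fold change of -2.44 did not pass (adjusted p = 0.151 from edgeR with Benjamini-Hochberg adjustment). Lcn2, which chromosome 17 alone lowered by a called change (-1.79), had -1.65 in the double strain (adjusted p = 0.197 from edgeR). The call with chromosome 17 was lost with 10 surrogate variables and with the 4 groups alone (adjusted p between 0.0636 and 0.2 from edgeR), and the median level of Lcn2 was 10.75 CPM in (B6 X B6.A17)F1 against 8.96 CPM in B6. Of 35 complement and coagulation genes, C4a rose (median -0.05), and of 41 interferon-stimulated genes, Gbp4, Gbp10, Gbp11 and Oas3 rose (median 0.19), all 4 of them on chromosome 5. Oas3 was called with replicate 2 left out but not with any of the other 4, nor with 0 surrogate variables, with the 4 groups alone or with adjustment over all genes together. Counts in all lists sit against the background of 1.44% of all genes, with 7.87% of cis and 0.556% of trans genes. Lists with cis members hold genes that can differ through their own alleles.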

How the data were processed

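Liver RNA of the 24 strains was measured by RNA-Seq, and 40 mice of 4 strains are compared here. Per the study's methods, the authors made stranded total RNA libraries from male mice and mapped the reads with TopHat2, first to mm10 and then, for reads left over, to a genome edited to carry A/J variants, and HTSeq counted the reads of each gene. Levels of cis genes rich in A/J variants, such as the H2 and Gbp families and C4a, depend on that second step, whose effect was not tested. The authors deposited whole-number counts of 13289 genes, without normalization. Positions came from GENCODE (GRCm38) for 13242 genes, and 47 genes without one were treated as trans.

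The members and gene lists were chosen with earlier results of these data known. After TMM scaling, all mice were fitted together in edgeR (version 4.0.16, R version 4.3.3), with terms for 8 chromosomes, 15 chromosome pairs and 5 svaseq variables (sva version 3.50.0). Contrasts used the quasi-likelihood test of edgeR under its legacy option, with Benjamini-Hochberg adjustment for cis and trans genes apart and a threshold of 0.05. The SE is the absolute log2 fold change divided by the root of F. The model was also run on simulated counts in which genes differed in the double strain alone. Those counts held no single-strain effects and no hidden batches, so they cannot show how the calls hold with either. Replicate numbers follow the order of deposit.

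Genes named (average log2 CPM 2 or higher) had, among called genes, the 12 largest cis and 12 largest trans changes of the double strain, the 6 lowest interaction p or the 4 largest changes of a single strain. At any level, called members of each list were added (at most 4, or the member with the lowest p), with the Glo1 segment and Asns. Zkscan3, Gbp6, Gbp8, Gbp9, Adgre1, Myh4, Nr1i2, Tap2, the sterol genes and further H2, Cyp3a and Ugt2b genes were added after their values were seen. Alternatives were 0 or 10 surrogate variables, the 4 groups alone with 0 or 5, size factors of DESeq2 (version 1.42.0) or its Wald test, a filter of 15 counts in 75% of the mice of the deposited table (met by 11852 of its 13289 genes, although the study's methods name this filter for all of them), adjustment over all genes together, legacy=FALSE and leaving out each double-strain mouse.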

Additional observations from a re-analysis of the deposited data

Results flagged for a closer look

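In groups of 5 to 8 mice, 1 mouse lay apart from the others of its strain in 20 of the 189 combinations of a named gene and a strain, by Dixon's criterion on log2(CPM + 1), which chance alone meets in about 1 in 20 groups. In (B6.A5 X B6.A17)F1, replicate 4 was that mouse for Pebp1 (79.8 CPM, others 112 to 126), Marco (4.67, others 11.1 to 11.9), Gm37296 (10.8, others 5.75 to 6.87), Fermt2 (81.3, others 105 to 112), Gm43305 (617, others 328 to 370), Lcn2 (24.5, others 3.66 to 5.41), Ugt2b5 (446.5, others 700.6 to 827.9) and H2-T22 (11.6, others 15.4 to 16.6). Replicate 1 was the low mouse for Manf, a chaperone gene (40.9 CPM, others 60.2 to 69.0).

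Among the single strains, (B6.A5 X B6)F1 replicate 5 was high for Cyp3a11 (9997 CPM, others 1291 to 2315), Ces2a (363 CPM, others 108 to 144) and H2-Q2 (2.08 CPM, others 0.51 to 0.98). (B6 X B6.A17)F1 replicate 6 was high for Cyp3a11 (7833 CPM, others 832 to 2295), Ces2a (354 CPM, others 111 to 151), Gstm1 (585 CPM, others at most 313.7) and Ephx1 (394.5 CPM, others 189 to 259.5). In (B6.A5 X B6)F1, replicate 2 was low for Tff3 (6.74 CPM, others 15.1 to 23.1), replicate 4 was low for Sds (106.5 CPM, others 180.7 to 262.3), and replicate 7 was low for Fam89a (1.68 CPM, others 4.17 to 7.36) and high for Lcn2 (46.6 CPM, others 3.84 to 11.8).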

How the results depend on the processing

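No paired analysis was possible because the replicate numbers only name mice in order of deposit. For the genes named by size of change, p or list, the change by which each was named kept its direction under every alternative. These 64 results include some that were not called in the main fit and so had no call to lose. They are the 6 lowest interaction p, the lowest-p members of lists without a call, and Asns in the double strain. Among the rest, 24 calls were lost with only the 4 groups and 0 surrogate variables, and 15 with 5. In the fit of all mice, 10 were lost with 0 and 10 with 10 surrogate variables. Genes added after their values were seen were not followed singly. Values below are the percent of tested genes that were called. The interaction had 0, with 0.00753% (1 gene) by DESeq2's Wald test and 0 to 0.0151% (at most 2 genes) with 1 double-strain mouse left out. The double strain against B6 had 1.44%, 0.64% with only the 4 groups and 0 surrogate variables, and 0.85% to 1.72% with a mouse left out. The chromosome 5 effect in B6 had 0.768%, 0.482% with 0 surrogate variables and 0.331% with only the 4 groups and 0 surrogate variables. The chromosome 17 effect in B6 had 3.67%, 13% with 0 surrogate variables, 0.948% with 10, 8.23% and 0.858% with only the 4 groups and 0 or 5, 1.46% with the count filter, and 2.78% to 5.86% with a mouse left out. The chromosome 5 effect beside chromosome 17 had 0.542%, and in the same order 6.31%, 0.346%, 1.37%, 0.278%, 0.329% and 0.301% to 0.61%. The cause of these shifts was not tested. Of the genes called in the double strain against B6, 82 to 190 were also called under each alternative that kept all mice, and 108 to 169 with 1 mouse left out. With 5 double-strain mice and at least 8703157 reads each, the median interaction interval of well-measured genes reached 0.24 (log2) to either side, which limits what could be detected. That interval is not adjusted for the number of genes tested, so larger interactions could also go uncalled.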
